A study of Mus musculus with 141 samples.

Results

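The aryl hydrocarbon receptor gene Ahr and 3 genes known as its targets, Ahrr, Cyp1b1 and Tiparp, were followed through the activation and Th17 differentiation of mouse CD4 T cells. The 4 genes were taken by name from a table of 46517 genes and were described over 47 groups of condition and time with 3 libraries each. All 4 had at least 1 CPM (read counts scaled to the same total in every library) in at least 3 libraries, the filter on low values, and so were among the 14695 genes tested in courses 1 to 3, the 14859 tested in courses 4 to 6 and the 15328 tested over all 6 courses.

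Naive CD4 T cells (CD4+CD25-CD44lo) came from the spleen and lymph nodes of C57BL/6 mice and were purified by sorting. The labels used here give no age for the mice. All cultured cells were activated on plate-bound antibodies to CD3 and CD28. Libraries were numbered by 6 courses: courses 1 to 3 held naive cells at 0 h, cells without polarizing cytokines (called Th0 in the labels) and cells with IL6 and TGFb, and courses 4 to 6 held their own naive cells and cells with IL6 and TGFb plus IL1b, plus IL21, or plus both (the IL1b, IL21 and combined cocktails). Cultured cells were collected at 9 times, first at 0.5, 1, 2, 4 and 6 h, later at 12 and 24 h, and last at 48 and 72 h. Courses 4 to 6 held no culture without cytokines, so the effect of cytokines was compared in courses 1 to 3 only.

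AhR is a basic helix-loop-helix PAS protein that waits in the cytoplasm with HSP90 chaperones until it binds a small planar ligand, such as a tryptophan derivative or a dioxin. It then enters the nucleus, pairs with ARNT and binds short response elements with the core GCGTG. Among its best known targets are the cytochrome P450 genes Cyp1a1 and Cyp1b1, whose enzymes oxidize ligands, and 2 genes of negative feedback: Ahrr, which encodes a repressor related to AhR, and Tiparp, which encodes the mono-ADP-ribosyltransferase PARP7. AhR is known to be abundant in Th17 cells and to be needed for their full IL-22 production.

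The promoters of the target genes are shown because all 3 rose late with IL6 and TGFb, below. Of the 4 genes, 3 had an entry in the RefSeq promoter table (build GRCm38.p6, 300 bases around the start, 5′ to 3′ on the gene's own strand): Tiparp at chr3:65528197-65528496 (plus strand), Ahrr at chr13:74292282-74292581 (minus strand) and Cyp1b1 at chr17:79715012-79715311 (minus strand). Capitals mark GCGTG, or CACGC where the motif lies on the other strand.
Ahrr: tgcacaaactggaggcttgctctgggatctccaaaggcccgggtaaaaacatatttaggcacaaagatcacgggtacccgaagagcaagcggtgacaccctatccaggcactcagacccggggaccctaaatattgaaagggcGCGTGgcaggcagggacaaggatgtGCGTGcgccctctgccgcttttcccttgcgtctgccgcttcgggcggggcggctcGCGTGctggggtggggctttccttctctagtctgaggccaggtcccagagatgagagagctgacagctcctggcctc
Cyp1b1: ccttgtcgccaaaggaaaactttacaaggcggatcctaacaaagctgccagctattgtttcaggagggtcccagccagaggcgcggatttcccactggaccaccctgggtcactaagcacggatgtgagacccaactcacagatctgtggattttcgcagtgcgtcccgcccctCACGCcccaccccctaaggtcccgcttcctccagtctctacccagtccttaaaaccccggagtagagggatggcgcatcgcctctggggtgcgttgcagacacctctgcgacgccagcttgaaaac
Tiparp: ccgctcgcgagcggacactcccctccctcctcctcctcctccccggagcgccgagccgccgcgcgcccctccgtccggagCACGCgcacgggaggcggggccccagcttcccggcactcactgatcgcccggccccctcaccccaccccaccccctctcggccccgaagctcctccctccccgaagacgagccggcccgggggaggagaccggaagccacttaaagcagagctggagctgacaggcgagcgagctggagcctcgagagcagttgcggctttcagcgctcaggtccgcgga

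The Ahrr promoter held 3 matches, which begin at -107, -82 and -27 from the start, and Cyp1b1 and Tiparp held 1 each, at -76 and -170. GCGTG, searched on both strands, was present in 32.4% of the 32851 promoters of 300 bases in that table, and 3.91% of them held at least 3 matches. The longer form TNGCGTG, which contains GCGTG, was found on either strand in 5.07% of all promoters and, among these 3, in Ahrr alone. A match describes the letters and is not evidence of binding, and no match says only that the letters are not in this window.

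Library depth was 16 to 47.1 M reads (median 25.4 M). T cell genes were read in every library: the summed level of Cd3e, Cd3d, Cd4, Trac, Cd28 and Lck was 1602 to 4812 CPM. The summed level of 8 B cell genes was at most 28.7 CPM, of 13 myeloid and dendritic genes at most 38.1 CPM, and of the 7 erythroid and platelet genes in the table at most 51.6 CPM, and the NK gene Ncr1 was at 0 in 96 libraries. The summed level of the CD8 T cell genes Cd8a and Cd8b1 was 1.52 to 40.7 CPM. Cd8b1 was lower with IL6 and TGFb than without cytokines at 24 h (2.14 ± 0.29 against 35.7 ± 4.00 CPM, SD, n = 3), and its part in the results was not tested. The libraries without cytokines of course 1 at 72 h and 48 h stood apart from their groups, with a root mean square difference from the group mean over tested genes of 0.62 and 0.42 on the log2 scale, against a median of 0.159 over courses 1 to 3. Differences of the 4 genes at those times are therefore given with and without course 1. For the change of effect from 24 to 72 h, only Ahr has a value without it, and the other members only whether they were called. Differences of other genes and lists were not refitted without course 1. In bulk RNA, a higher level cannot be told apart as more transcript per cell or more cells with the transcript.

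Levels below are CPM after a scaling between libraries (TMM), given as mean ± SD over 3 libraries. CPM are not divided by gene length, so levels are compared within a gene and never between genes. Differences are log2 values ± SE from limma on log2(scaled CPM + 0.5), which understate the change of a gene with few reads, and a difference is called where the Benjamini-Hochberg adjusted p over all genes tested is under 0.05. Groups are said not to overlap where every library of 1 group lies above every library of the other. The share of all genes without overlap was not counted, so a lack of overlap does not set a gene apart from the rest. The libraries are biological replicates in the labels, which do not say whether each came from separate mice.

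Ahr rose with IL6 and TGFb and rose far less without cytokines. In naive cells of courses 1 to 3 it was at 3.00, 6.19 and 4.45 CPM. With IL6 and TGFb they were at 15.2, 24.3 and 18.03 CPM at 1 h, against 7.61, 11.4 and 6.79 without cytokines, so the groups did not overlap at 1 h. The level stayed between 18.6 and 29.9 CPM at 2 and 4 h, reached 43.6 to 54.3 CPM at 6 h, and then stood at 341, 303 and 268 CPM at 12 h. From 6 to 12 h the group mean went from 50.3 ± 5.84 to 304 ± 36.1 CPM. It was 338 ± 38.0 CPM at 24 h, 419 ± 21.4 CPM at 48 h and 344 ± 10.6 CPM at 72 h.

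Without cytokines Ahr had a single low peak, with 18.5, 32.1 and 17.1 CPM at 12 h, and was at 11.01, 4.01 and 5.47 CPM at 72 h. The log2 difference made by IL6 and TGFb was 0.27 ± 0.29 at 0.5 h, which was not called, and was called from 1 h on: 1.12 ± 0.29 at 1 h (adjusted p = 0.00839), 1.66 at 2 h, 1.34 at 4 h, 1.74 at 6 h, 3.77 at 12 h, 4.57 at 24 h, 6.03 at 48 h and 5.67 at 72 h, each with an SE of 0.29 and all called by limma. The groups did not overlap at any of these 8 times. The calls at 1 h and 4 h were lost without course 2 (adjusted p = 0.0692 and 0.0775), and the call at 1 h also without course 3 (adjusted p = 0.219). The library without cytokines of course 1 was the highest of its group at both 48 and 72 h (13.3 and 11.01 CPM), and without course 1 the differences were larger, at 6.54 and 6.07.

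Ahrr, the repressor, stayed low for 12 h in every condition and rose from 24 h. Over all groups up to 12 h, no library was above 2.01 CPM, and in naive cells it was at 0.54 to 0.86 CPM. With IL6 and TGFb it stood at 9.95, 8.40 and 8.36 CPM at 24 h, 15.7, 16.3 and 17.9 CPM at 48 h, and 16.8, 12.9 and 15.1 CPM at 72 h. Without cytokines it was at 2.01, 1.98 and 1.97 CPM at 24 h, 1.52, 6.67 and 8.14 CPM at 48 h, and 1.23, 2.29 and 3.06 CPM at 72 h. The groups did not overlap at any of the 3 late times, though the spread without cytokines at 48 h was wide.

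The Ahrr difference was called at 24 h (1.91 ± 0.30, adjusted p = 2.42e-06), 48 h (1.77 ± 0.30, adjusted p = 4.32e-06) and 72 h (2.58 ± 0.30, adjusted p = 1.93e-09). It was not called at any of the 6 earlier times, where it lay between -0.34 and 0.44. The course 1 library at 48 h, one of those that stand apart, held the least Ahrr and the most Ahr of the 3 libraries without cytokines. Without course 1 the Ahrr difference was 1.16 at 48 h and 2.20 at 72 h, and both stayed called.

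Cyp1b1, the cytochrome P450 gene, was almost unread until 6 h and rose with IL6 and TGFb from 12 h, with a log2 difference of 6.65 at 24 h. It was at 0 reads in 24 libraries of all conditions together, and no library of any condition up to 6 h was above 0.82 CPM. With IL6 and TGFb it was at 1.47, 1.08 and 1.71 CPM at 12 h, 77.7, 81.0 and 83.3 CPM at 24 h, 89.7, 126 and 121 CPM at 48 h, and 34.8, 39.4 and 41.8 CPM at 72 h. Without cytokines the highest of 27 libraries was 1.04 CPM, and 25 of them were under 1 CPM. All 6 naive libraries were under 1 CPM too. Cyp1b1 thus passed the filter on low values only through libraries with cytokines, where it is high, and its tests are of a gene admitted in that way. The 12 h libraries with cytokines lay above all 3 libraries without, which were at 0, 0.16 and 0.21 CPM.

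The Cyp1b1 difference was called at 12 h (1.63 ± 0.29, adjusted p = 5.26e-05), 24 h (6.65 ± 0.29, adjusted p = 5.79e-22), 48 h (6.51 ± 0.29, adjusted p = 2.24e-22) and 72 h (5.08 ± 0.29, adjusted p = 6.81e-19), with no overlap at any of the 4 times. At 0.5 to 6 h it was between -0.17 and 0.30 and not called. Since the libraries without cytokines held few or no reads, these values depend on the pseudocount of 0.5 and are not bounds on a ratio. Without course 1 the differences were 6.57 at 48 h and 5.12 at 72 h.

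Tiparp, which encodes PARP7, rose within 0.5 h of activation in both conditions, declined, and from 12 h was high with IL6 and TGFb and low without cytokines. Naive libraries of courses 1 to 3 were at 27.5, 25.8 and 27.02 CPM. At 0.5 h it was at 111, 135 and 93.6 CPM without cytokines and 121, 143 and 95.7 CPM with IL6 and TGFb, and the groups overlapped. Both then declined, to 12.9 to 17.4 CPM without cytokines and 18.99 to 21.9 CPM with them at 6 h. With IL6 and TGFb a second rise followed, with 84.1, 66.5 and 70.1 CPM at 12 h and 156, 160 and 186 CPM at 24 h. Without cytokines no library was above 15.4 CPM from 12 h on.

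The Tiparp difference was 0.08 ± 0.14 at 0.5 h and 0.25 ± 0.14 at 1 h, neither called. It was called at 2 h (1.00 ± 0.14, adjusted p = 4.27e-07), 4 h (0.87 ± 0.14), 6 h (0.47 ± 0.14, adjusted p = 0.0348), 12 h (2.48 ± 0.14), 24 h (3.45 ± 0.14, adjusted p = 4.39e-23), 48 h (2.94 ± 0.14) and 72 h (2.53 ± 0.14). Of the times called, the difference was smallest at 6 h, where the call was lost without course 1 (adjusted p = 0.208), without course 2 (adjusted p = 0.499) and without a filter on low values (adjusted p = 0.0723). At 48 and 72 h the differences without course 1 were 3.08 and 2.46.

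**Figure D1:**
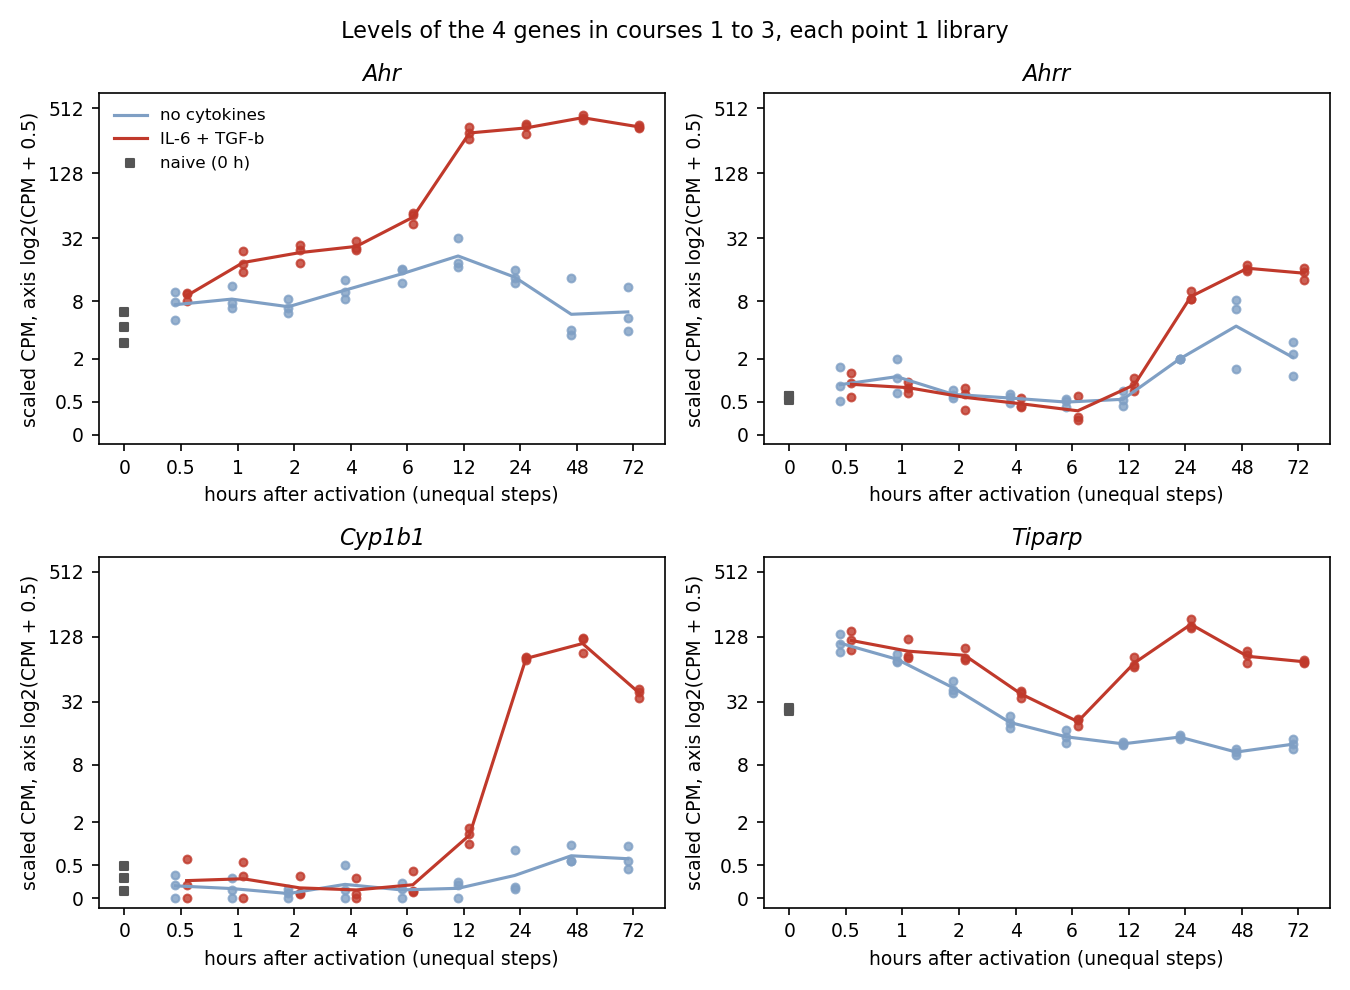
Level of each of the 4 genes (scaled CPM, on an axis of log2(CPM + 0.5)) against hours after activation in courses 1 to 3, where each point is 1 library and lines join group means on the log2 scale. Ahr parts from the culture without cytokines by 1 h, Tiparp by 2 h, Cyp1b1 by 12 h and Ahrr by 24 h.

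Of the 36 tests of the 4 genes against cells without cytokines, 22 were called, all higher with IL6 and TGFb. Among them are the calls of Cyp1b1, which passed the filter on low values only through libraries with cytokines. The counts per time were 0 of 4 genes at 0.5 h, 1 at 1 h, 2 at 2, 4 and 6 h, 3 at 12 h and 4 at 24, 48 and 72 h. At 0.5 h, limma gave 0 of the 4 genes at an unadjusted p under 0.05, and edgeR and DESeq2 on recovered reads called 0. Of all genes, the share called was 0.612% at 0.5 h, 7.93% at 1 h, 12.7% at 2 h, 4.32% at 4 h, 4.57% at 6 h, 9.48% at 12 h, 26.1% at 24 h, 52.9% at 48 h and 46.2% at 72 h. With such shares of all genes called at 48 and 72 h, a call at those times does not set the 4 genes apart from the rest.

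The rises with IL6 and TGFb came at different times. As a percent of each gene's own highest group mean in that course, Ahr was at 12.0% at 6 h and 72.5% at 12 h. At 12 h Cyp1b1 was at 1.27% and Ahrr at 5.69% of their highest means, and at 24 h they were at 71.9% and 53.5%. Tiparp was at 71.6% of its highest mean at 0.5 h, 12.4% at 6 h, 43.9% at 12 h and 100% at 24 h. Ahr, Ahrr and Cyp1b1 were at 100% at 48 h, when Tiparp was at 50.7%. By 72 h the percent was 82.1% for Ahr, 90.1% for Ahrr, 34.5% for Cyp1b1 and 44.9% for Tiparp. The order describes group means, and no test between genes was made.

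**Figure D2:**
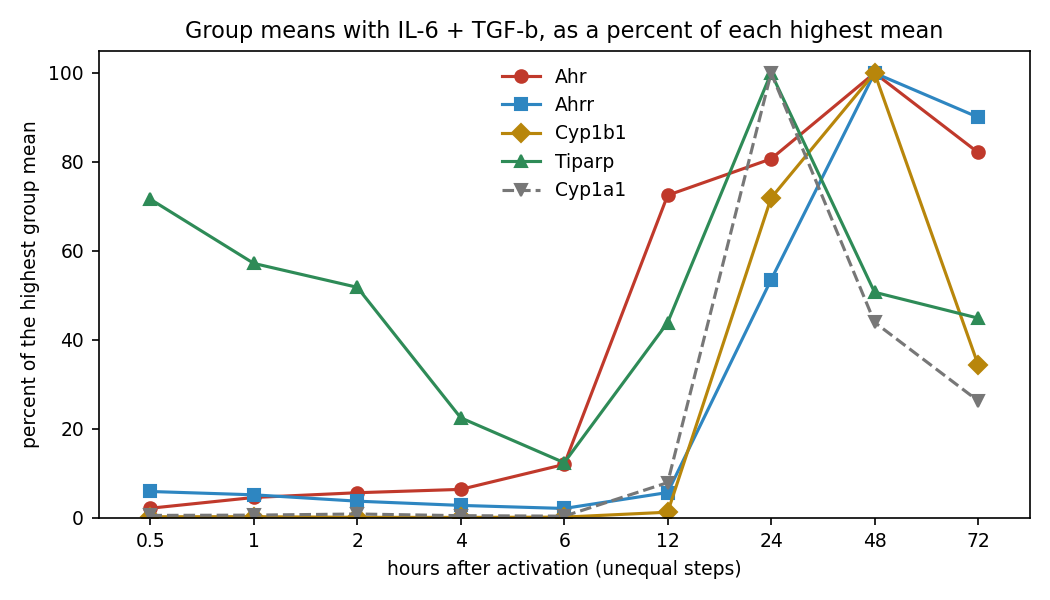
Group mean of each gene in cells with IL6 and TGFb, as a percent of its highest mean in that course, against hours after activation. Ahr reaches 72.5% by 12 h, when Cyp1b1 is at 1.27%, and Cyp1a1 (dashed) and Tiparp are at their highest at 24 h.

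The effect of IL6 and TGFb was larger at 24 h than at 2 h for all 4 genes, by 2.92 ± 0.42 for Ahr, 2.00 ± 0.43 for Ahrr, 6.48 ± 0.42 for Cyp1b1 and 2.46 ± 0.19 for Tiparp on the log2 scale (adjusted p = 5.31e-07, 0.00046, 3.69e-16 and 2.08e-13, limma). The Cyp1b1 value was not called by edgeR (6.43, adjusted p = 0.112). Of all genes 19.6% were called in that comparison of effects. From 24 to 72 h the effect fell by 1.57 ± 0.42 for Cyp1b1 (adjusted p = 0.00427) and by 0.93 ± 0.19 for Tiparp (adjusted p = 0.000334), where 21.4% of all genes were called. For Ahr and Ahrr the effect was larger at 72 h than at 24 h, by 1.10 ± 0.42 and 0.66 ± 0.43. Neither rise was called (adjusted p = 0.0538 and 0.309). Both comparisons use the same 24 h libraries. The Cyp1b1 fall was not called without course 2 (adjusted p = 0.0812), without course 3 (adjusted p = 0.145), with a pseudocount of 0.1 (adjusted p = 0.128), by edgeR (adjusted p = 0.0777) or by DESeq2 (adjusted p = 0.39). The Ahr rise was called without course 1 (1.58, adjusted p = 0.00244) and with a filter of 5 CPM (adjusted p = 0.049). It was also called with all libraries in a single fit (adjusted p = 0.00704). Without course 1 the falls of Cyp1b1 and Tiparp stayed called, and the Ahrr difference stayed not called.

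**Figure D3:**
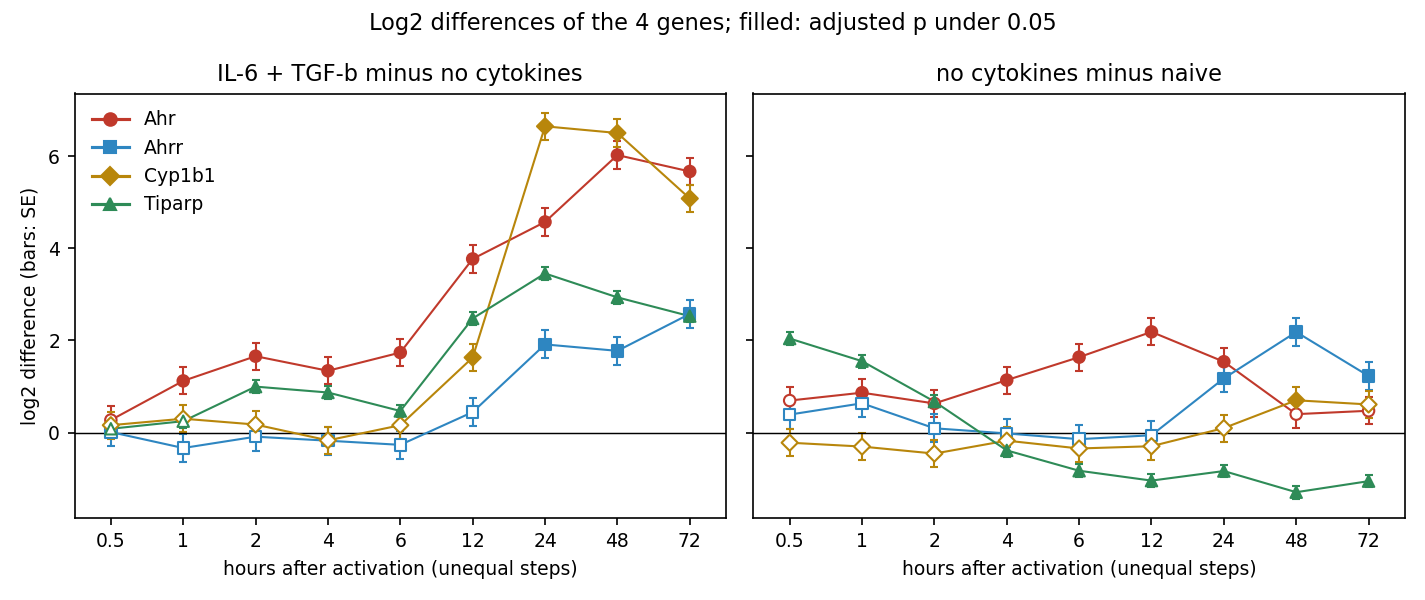
Log2 difference ± SE (limma, 3 libraries per group) of the 4 genes against hours after activation, with IL6 and TGFb minus no cytokines on the left and no cytokines minus naive on the right. Filled symbols have an adjusted p under 0.05: on the left Ahr is filled from 1 h and Cyp1b1 peaks at 6.65, and on the right Tiparp goes from 2.04 at 0.5 h to -1.30 at 48 h.

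Activation without polarizing cytokines changed Tiparp at all 9 times, Ahr at 5, Ahrr at 3 and Cyp1b1 at 1. Tiparp was higher than in naive cells at 0.5 h (2.04 ± 0.14), 1 h (1.55 ± 0.14) and 2 h (0.67 ± 0.14) and lower at all 6 later times, from -0.39 ± 0.14 at 4 h to -1.30 ± 0.14 at 48 h. The call at 4 h was lost without course 1 (-0.29, adjusted p = 0.133) and without course 2 (-0.40, adjusted p = 0.06). Without course 1 the Tiparp differences at 48 and 72 h were -1.32 and -0.96. Ahr was called higher at 1, 4, 6, 12 and 24 h, with the largest difference at 12 h (2.19 ± 0.29, adjusted p = 1.05e-08), and was not called at 48 h (0.40 ± 0.29) or 72 h (0.47 ± 0.29). At 2 h it was not called (0.63 ± 0.29, adjusted p = 0.0547), but 5 of 14 alternatives called it, with the smallest adjusted p, 0.0121, from all libraries in a single fit, and 0.0203 without course 2 (0.95). Ahrr was called higher at 24 h (1.18 ± 0.30), 48 h (2.18 ± 0.30) and 72 h (1.23 ± 0.30), at the last 2 of which Ahr was not. Without course 1 these late differences were -0.39 and -0.15 for Ahr and 2.86 and 1.54 for Ahrr at 48 and 72 h. Without course 2 Ahr was called at both times (0.87, adjusted p = 0.0333, and 0.99, adjusted p = 0.0169). At 1 h Ahrr was 0.63 ± 0.30 higher (adjusted p = 0.0716), and its adjusted p was 0.0352 with the course as a replicate block on the libraries compared, which paired at that time. It was also called without course 1 (adjusted p = 0.0273), with all libraries in a single fit (adjusted p = 0.0286), by edgeR (1.10, adjusted p = 0.0369) and by DESeq2 (1.04, adjusted p = 0.0378).

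Cyp1b1 without cytokines was called once, at 48 h (0.70 ± 0.29, adjusted p = 0.0322), with 0.59, 0.61 and 1.04 CPM against 0.08, 0.48 and 0.26 CPM in naive cells. These are levels of few reads, and 8 alternatives, among them edgeR (adjusted p = 0.0639) and DESeq2 (adjusted p = 0.199), lost the call. Without course 1 the difference was 0.60 (adjusted p = 0.0797) and without course 3 the adjusted p was 0.198. At 72 h it was 0.45 without course 1 (adjusted p = 0.198), and it was called without course 2 (0.96, adjusted p = 0.0368) and without TMM scaling (0.69, adjusted p = 0.0394). In all, 18 of 36 tests were called, 12 higher and 6 lower. The share of all genes called against naive cells was 23.1% at 0.5 h, 57.1% at 1 h, 69.1% at 2 h, 72.8% at 4 h, 72.4% at 6 h, 71.7% at 12 h, 72.6% at 24 h, 69.6% at 48 h and 65.3% at 72 h, so that 18 of 36 does not stand above this background.

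Against naive cells, cells with IL6 and TGFb held more Ahr and Tiparp at 2 h (2.29 ± 0.29 and 1.67 ± 0.14) and more of all 4 genes at 24 and 72 h. At 24 h the log2 differences were 6.11 ± 0.29 for Ahr, 3.09 ± 0.30 for Ahrr, 6.75 ± 0.29 for Cyp1b1 and 2.62 ± 0.14 for Tiparp, and at 72 h they were 6.14, 3.81, 5.69 and 1.47 with the same SEs. These were 10 calls in 12 tests, where 70.6%, 75.5% and 74.7% of all genes were called at 2, 24 and 72 h. The calls of Cyp1b1 among them are again of a gene admitted only through libraries with cytokines. Tiparp thus lay above the naive level at 72 h with IL6 and TGFb and below it without cytokines, by -1.06 ± 0.14. These comparisons share naive libraries with those of activation alone.

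In the cocktails that added IL1b, IL21 or both, Ahr also stood far higher at 12 h than at 6 h, and Ahrr and Cyp1b1 were high from 24 h. Ahr was at 6.66 to 10.9 CPM at 0.5 h in the 9 cocktail libraries, 29.96 to 42.6 CPM at 6 h and 215 to 251 CPM at 12 h. Ahrr was at 0.12 to 0.81 CPM at 6 h and 6.67 to 9.22 CPM at 24 h. Cyp1b1 was at 1.21 to 2.73 CPM at 12 h and 66.5 to 86.0 CPM at 24 h. Tiparp was at 137 to 177 CPM at 0.5 h, 24.97 to 34.3 CPM at 6 h and 158 to 185 CPM at 24 h.

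At 72 h the courses spread apart. Cyp1b1 at 72 h was at 48.8, 21.6 and 28.3 CPM with the IL1b cocktail in courses 4, 5 and 6, at 135, 28.9 and 47.6 CPM with the IL21 cocktail and at 76.1, 19.7 and 31.5 CPM with the combined cocktail. In each cocktail the course 4 library was the highest and the course 5 library the lowest. Ahr at 72 h was at 290, 178 and 188 CPM with the IL1b cocktail, 439, 280 and 343 CPM with the IL21 cocktail and 373, 162 and 263 CPM with the combined cocktail. In courses 4, 5 and 6 alike the IL21 cocktail held the most Ahr and the most Cyp1b1 of the 3 at 72 h. The course 4 libraries of the IL21 and combined cocktails at 72 h also lay farthest from their groups over all tested genes in courses 4 to 6 (0.27 each on the log2 scale, against a median of 0.15).

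Ahr was lower with the IL1b cocktail than with the IL21 cocktail at 72 h, by -0.70 ± 0.17 (adjusted p = 0.00227, limma), although the libraries of the 2 groups overlapped. This was the only one of 60 tests of the 4 genes between cocktails that was called, and 6 had an unadjusted p under 0.05. It was not called without course 6 (-0.62, adjusted p = 0.161) or with only the libraries compared in the fit (adjusted p = 0.243). The numbers of the courses paired the 3 cocktails at 72 h. With the course as a replicate block on the libraries compared, the call held and 3 more were added at 72 h: Cyp1b1 lower with the IL1b than with the IL21 cocktail (-0.87, adjusted p = 0.0366), and Ahr (-0.47, adjusted p = 0.0362) and Cyp1b1 (-0.65, adjusted p = 0.00405) lower with the combined than with the IL21 cocktail. Without the block the adjusted p of these 3 was 0.0951, 0.113 and 0.394. The IL1b and IL21 cocktails also paired at 24 h, where Ahr was lower with IL1b by -0.26 (adjusted p = 0.0234 with the block and 1 without). Without course 4, Ahr was also called lower with the combined than with the IL21 cocktail at 72 h (-0.58, adjusted p = 0.0303).

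Over the mean of 0.5 to 6 h, the Ahr difference between the combined and the IL1b cocktail was 0.28 ± 0.07 and was not called (adjusted p = 0.0521). At 4 h Ahr was at 22.9, 21.5 and 19.1 CPM with the IL1b cocktail, 35.6, 33.0 and 28.9 CPM with the IL21 cocktail and 33.0, 30.2 and 26.5 CPM with the combined cocktail, and the first group did not overlap the other 2. The IL1b and combined cocktails did not overlap at 6 h either, but did at 0.5 h (6.95 to 9.26 against 8.17 to 10.9 CPM), 1 h (14.7 to 18.5 against 17.6 to 20.8 CPM) and 2 h (19.8 to 24.3 against 23.004 to 26.3 CPM). The 95% interval of the mean difference was 0.13 to 0.42. Of 14 alternatives 6 called it, among them DESeq2 (adjusted p = 0.0271) and only the libraries compared (adjusted p = 0.0126), and over the 6 the adjusted p was 0.00464 to 0.0491. For Ahrr and Tiparp no difference between cocktails was called. Their widest differences were -0.27 ± 0.22 for Ahrr and -0.21 ± 0.15 for Tiparp, and a p that misses the threshold does not show that the cocktails act alike.

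Between the IL1b and IL21 cocktails 0.202% of genes were called over the mean of 0.5 to 6 h, 0.0202% at 12 h, 0.209% at 24 h, 2.38% at 48 h and 9.58% at 72 h. Between the combined and IL21 cocktails the shares were 0%, 0.0135%, 0.209%, 1.24% and 4.08%. Between the combined and IL1b cocktails they were 0.814%, 0%, 0%, 0% and 0%. Where limma called 0 genes, 442 had an unadjusted p under 0.05 for the combined against the IL21 cocktail over 0.5 to 6 h, and 172, 115, 201 and 201 for the combined against the IL1b cocktail at 12, 24, 48 and 72 h. There edgeR called 0 in each, and DESeq2 called 1 at 12 h and 0 in the others. The 3 cocktail comparisons share libraries.

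**Figure D4:**
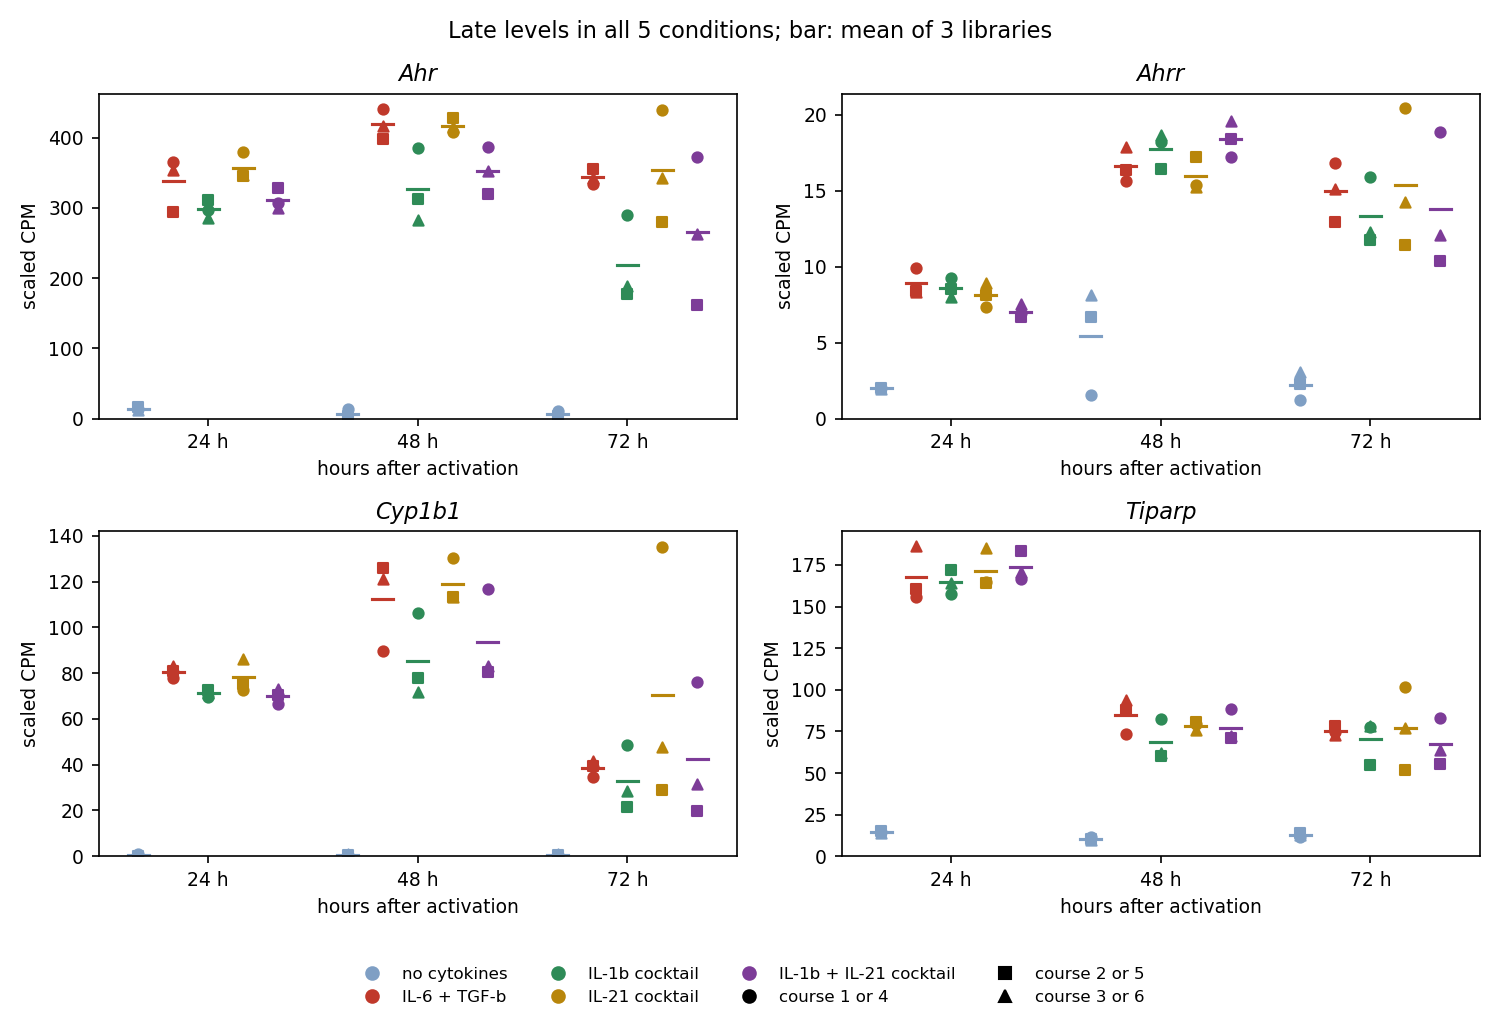
Level (scaled CPM) of the 4 genes at 24, 48 and 72 h in the 5 culture conditions, where each symbol is 1 library, its shape gives the course and the bar is the mean of 3. At each time all 4 genes with any cytokines lie above the culture without. The course 4 library with the IL21 cocktail at 72 h stands at 135 CPM for Cyp1b1.

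Set against IL6 and TGFb alone, with the naive level of the same courses subtracted from each, no difference of the 4 genes was called. Of the 24 tests limma called 0 and 1 had an unadjusted p under 0.05, Cyp1b1 with the IL21 cocktail at 72 h (1.01 ± 0.46, adjusted p = 0.999), and edgeR and DESeq2 called 0. The shares of all genes called at 24 and 72 h were 0.0261% and 2.36% for the IL1b cocktail, 0.00652% and 0.013% for the IL21 cocktail and 0.013% and 1.45% for the combined one. The 3 comparisons share the libraries with IL6 and TGFb. Subtracting the naive level takes out only what already differed at 0 h. The added cytokines and the set of courses therefore cannot be told apart here. For Ahr at 24 h the 95% intervals ran from -0.45 to 1.10 over the 3 cocktails, which leaves room for differences of that size. Between naive cells of the 2 sets of courses, limma called 0 of the 4 genes and gave 0 at an unadjusted p under 0.05, edgeR and DESeq2 called 0, and 0.15% of all genes were called.

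Over all 47 groups, Ahr was highest with IL6 and TGFb at 48 h (419 ± 21.4 CPM) and lowest in the naive cells of courses 4 to 6 (3.35 ± 0.91 CPM). Its first 12 groups were the cytokine conditions from 24 to 72 h, less the IL1b cocktail at 72 h, plus IL6 and TGFb at 12 h. Ahrr was highest with the combined cocktail at 48 h (18.4 ± 1.18 CPM) and lowest with IL6 and TGFb at 6 h (0.35 ± 0.25 CPM). Cyp1b1 was highest with the IL21 cocktail at 48 h (119 ± 9.69 CPM), and its first 12 groups, like those of Ahrr, were the 4 cytokine conditions at 24, 48 and 72 h. Tiparp was highest with the combined cocktail at 24 h (174 ± 9.02 CPM), followed by the other 3 cytokine conditions at 24 h and then by all 5 conditions at 0.5 h, and lowest without cytokines at 48 h (10.6 ± 0.66 CPM). Neighbours in these orders mostly overlapped: 43 of 46 neighbouring pairs for Ahr, 45 for Ahrr, 43 for Cyp1b1 and 40 for Tiparp shared part of their range. The separated pairs of Cyp1b1 were the IL21 against the IL1b cocktail at 24 h, the IL1b cocktail at 72 h against the combined cocktail at 12 h, and IL6 and TGFb at 12 h against no cytokines at 48 h.

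The profiles of Ahrr and Cyp1b1 were the most alike of the 6 pairs, with a Pearson r of 0.95 between their mean log2 levels over 47 groups. It was 0.85 for Ahr and Cyp1b1, 0.71 for Ahr and Ahrr, and 0.30 to 0.37 for Tiparp with the other 3. These points share libraries, courses and time order, so the values describe the profiles and carry no p. Among genes that reached a group mean of 5 CPM, clone and predicted-gene names included, Cyp1b1 ranked 59 by likeness to Ahr. Ahrr ranked 654 and Tiparp 3969 by likeness to Ahr, and Cyp1b1 ranked 21 by likeness to Ahrr. Among 10519 genes ranked, those most like Ahr were Nek6 (0.95), Stk38l (0.95), Emp1 (0.95), Egln3 (0.94) and Il1r1 (0.94). Those most like Ahrr were Gatm (0.98), Lgr4 (0.98), Gcnt1 (0.97), Cdc42bpb (0.97) and Mpp2 (0.97). Those most like Cyp1b1 were Il17f (0.99), which encodes the Th17 cytokine IL-17F, Erc1 (0.98), Cd5l (0.98), Peli2 (0.98) and Crispld2 (0.98). For Tiparp the values were lower, with Trappc10 (0.83), Ctsw (0.82), Ccno (0.81) and Ldlrad4 (0.80) among the closest.

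Cyp1a1, the best known AhR target and the close relative of Cyp1b1, was not chosen among the 4 and also rose late, with and without the cytokines. It was at 12.5 to 18.6 CPM without cytokines and 36.7 to 55.1 CPM with IL6 and TGFb at 24 h, a difference of 1.59 ± 0.42 (adjusted p = 0.00318). At 48 h it was at 13.1 to 46.8 CPM without cytokines and 14.95 to 29.01 CPM with them, and the difference was not called (-0.40 ± 0.42, adjusted p = 0.435). At 72 h it was higher with IL6 and TGFb again (12.4 ± 2.01 against 4.81 ± 4.22 CPM, 1.57 ± 0.42, adjusted p = 0.00199). Against naive cells, Cyp1a1 without cytokines was higher at 12 h (1.90 ± 0.42), 24 h (4.64 ± 0.42), 48 h (5.43 ± 0.42) and 72 h (2.79 ± 0.42), where Cyp1b1 had 0.70 ± 0.29 at most. Whether the 2 genes differ in these responses was not tested. Its highest group mean was with the IL21 cocktail at 24 h (74.4 ± 10.4 CPM), and at 72 h it was lower with the IL1b than with the IL21 cocktail (-0.86 ± 0.28, adjusted p = 0.0406).

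**Figure D5:**
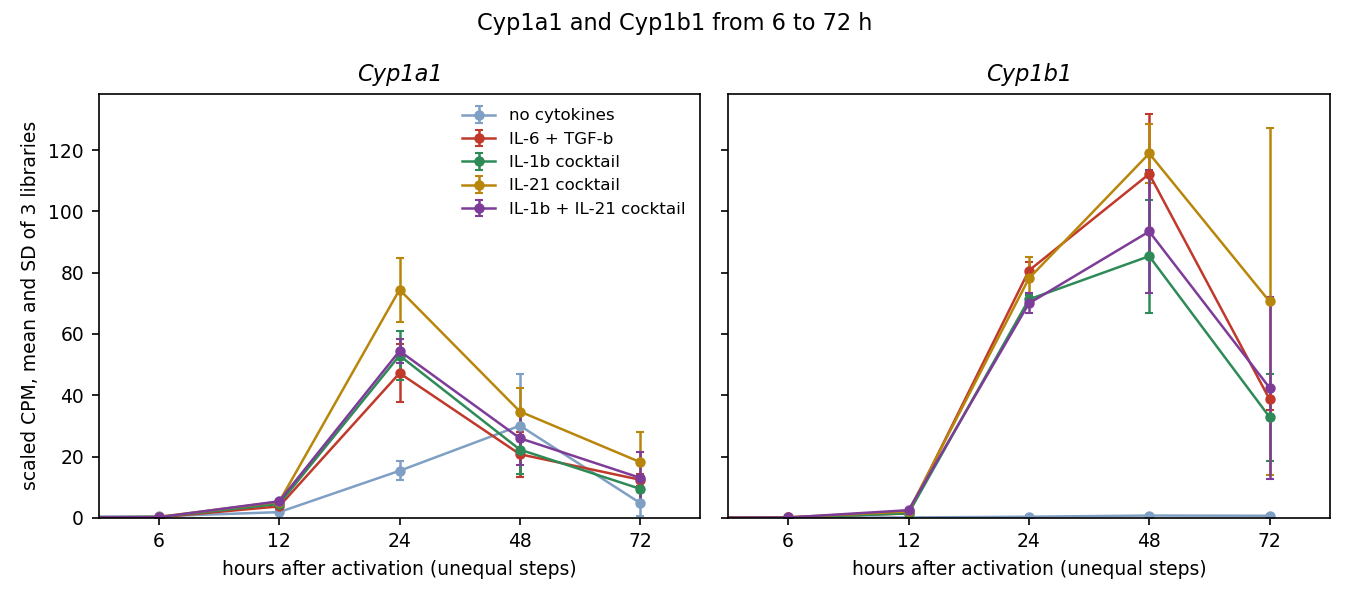
Mean ± SD of 3 libraries (scaled CPM) of Cyp1a1 and Cyp1b1 from 6 to 72 h in the 5 culture conditions, to be read within each gene. Cyp1a1 without cytokines reaches 30.1 CPM at 48 h, while Cyp1b1 without cytokines stays under 1 CPM on average.

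Of 13 battery enzymes and other classical AhR targets, 5 were tested, and 1 was higher at 2 h, 1 at 24 h and 3 at 72 h with IL6 and TGFb, with 1 lower at 72 h. The list had a median log2 difference of 0.46, 0.18 and 0.57 at 2, 24 and 72 h, against -0.03, -0.02 and -0.05 over all genes. At 48 h 2 were higher and 1 lower, with a median of 0.13 against -0.03 over all genes. The counts of this and the following lists stand beside 12.7%, 26.1%, 52.9% and 46.2% of all genes called at 2, 24, 48 and 72 h. Nfe2l2, which encodes the antioxidant factor NRF2, was higher at 2 h (131 ± 18.4 against 63.3 ± 7.23 CPM, 1.04 ± 0.14) and 72 h (0.57 ± 0.14). Slc7a5, a transporter of large amino acids such as tryptophan and kynurenine, was higher at 72 h (388 ± 21.2 against 158 ± 8.76 CPM, 1.30 ± 0.17). Nqo1, a quinone reductase and an AhR target in other tissues, was lower at 72 h (-1.39 ± 0.37), with overlapping libraries at 0.89 ± 0.19 against 4.22 ± 3.51 CPM. Nqo1 is outside the rule for named genes and was chosen after its values were seen.

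Of 15 genes of the AhR complex and its partners, 14 were tested, with 3 lower at 2 h, 4 higher and 1 lower at 24 h, and 4 higher and 2 lower at 72 h. The list medians were -0.10, 0.06 and 0.03. At 48 h 9 were higher and 3 lower, with a median of 0.46. Arnt, the nuclear partner of AhR, was not called at 24 h (60.8 ± 1.69 against 57.6 ± 1.46 CPM) or 72 h (73.2 ± 1.77 against 77.1 ± 10.9 CPM), and it is named here outside the rule for named genes. The coactivator gene Ncoa1 was higher at 24 h (0.82 ± 0.11) and 72 h (0.74 ± 0.11), while Ncoa2, a related coactivator, was lower at 2 h (-0.56 ± 0.10), 24 h (-0.73 ± 0.10) and 72 h (-0.80 ± 0.10). Klf6, a zinc finger factor reported to bind with AhR, was higher at 24 h (127 ± 18.6 against 29.3 ± 1.47 CPM, 2.08 ± 0.15). Hsp90ab1, an HSP90 chaperone, was higher at 72 h (0.88 ± 0.20), and the acetyltransferase genes Ep300 and Crebbp were lower at 2 h (-0.28 ± 0.07) and 72 h (-0.61 ± 0.11) in that order.

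Of 14 T cell genes linked to AhR, all tested, 6 were higher at 2 h, 13 at 24 h and 11 at 72 h, with 0, 0 and 1 lower. The list medians were 0.47, 3.17 and 3.95, and at 48 h 13 were higher and 1 lower (median 4.5). Il21, a helper cytokine gene, was higher at all 3 times (3.08 ± 0.41, 6.71 ± 0.41 and 7.19 ± 0.41), as was Maf, a factor of Il10 and Il21 expression, at 2 and 24 h (2.13 ± 0.31 and 6.63 ± 0.31). Ikzf3, which encodes Aiolos, was higher at 2 h (1.43 ± 0.28), and Il1r1, the IL-1 receptor gene, at 24 h (104 ± 7.30 against 0.52 ± 0.13 CPM). Il17a was higher at 72 h (177 ± 104 against 1.08 ± 0.21 CPM) and so was Gpr15, a homing receptor gene (95.03 ± 5.16 against 0.48 ± 0.21 CPM). Il17a marks Th17 cells with or without AhR, and the list does not test AhR itself. Of the 6 T cell identity genes, 4 were lower at 2 h, and again 4 at 24 h, with 2 lower and 1 higher at 72 h. Of the 7 B cell genes tested, 0 were called at 2 and 24 h, and 1 higher and 3 lower at 72 h. Of the 8 myeloid genes tested, 1 was lower at 2 h, 1 higher and 1 lower at 24 h, and 3 lower at 72 h. Of 6 tested NK, gamma-delta and innate lymphoid genes, 1 was lower at 2 h, 4 higher and 1 lower at 24 h, and 3 higher and 2 lower at 72 h. Of 5 erythroid genes tested 0 were called at these times. The part of other cells in the results was not tested.

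Of 16 genes that supply or clear tryptophan-derived ligands, 10 were tested, with 0 called at 2 h, 1 lower at 24 h, and 3 higher and 3 lower at 72 h, and medians of 0.24, -0.11 and 0.07. At 48 h 2 were higher and 3 lower (median -0.33). Slc3a2, the partner chain of the Slc7a5 transporter, was higher at 72 h (186 ± 10.6 against 93.2 ± 18.7 CPM, 1.01 ± 0.14). Got1, an aspartate aminotransferase gene, was higher at 72 h (1.28 ± 0.18), and Afmid, the kynurenine formamidase gene, was lower (-0.46 ± 0.17).

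Of 15 other genes of the bHLH-PAS family, 12 were tested, and those called were 1 higher and 3 lower at 2 h, 4 higher and 3 lower at 24 h, and 6 higher and 2 lower at 72 h. The list medians were -0.15, 0.07 and 0.50, and at 48 h, with 5 higher and 5 lower, it was 0.26. Hif1a, whose protein also pairs with ARNT, was higher at 2 h (1316 ± 157 against 437 ± 11.3 CPM), 24 h (464 ± 40.1 against 189 ± 7.17 CPM) and 72 h (1075 ± 34.0 against 191 ± 36.0 CPM). Epas1, which encodes HIF-2alpha, was lower at 2 h (-1.37 ± 0.31). The clock genes Arntl (1.26 ± 0.13) and Clock (0.75 ± 0.09) were higher at 24 h, and Per2 (-0.79 ± 0.30) and Per3 (-0.996 ± 0.14) were lower.

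Tiparp belongs to the PARP family, of which 18 other genes, ADP-ribose erasers included, were tested, and those called were 4 higher and 1 lower at 2 h, 1 higher and 4 lower at 24 h, and 4 higher and 6 lower at 72 h. The list medians were -0.0033, 0.01 and 0.01, and at 48 h, with 3 higher and 8 lower, it was -0.20. Parp14 (479 ± 92.9 against 69.3 ± 2.03 CPM), Parp9 (124 ± 35.3 against 19.8 ± 0.55 CPM) and Parp12 (29.0 ± 3.35 against 7.20 ± 0.70 CPM), which are interferon-inducible in many cells, were higher at 2 h. Parp8 was lower at 2 h (-0.94 ± 0.22) and 24 h (-1.98 ± 0.22), and Parp10 was lower at 24 h (-1.62 ± 0.16). At 24 h, Parp6 (0.28 ± 0.10) was the single gene of this list called higher. At 72 h Parp16 was higher (1.61 ± 0.26) and Parp11 (-1.13 ± 0.17) and Parp12 (-2.57 ± 0.34) were lower.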

How the data were processed

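RNA-seq was made from 47 groups of 3 libraries. The deposited values are CPM, read counts scaled to the same total in every library, for 46517 genes, and every column was used (0 left out). TopHat and HTSeq and the builds mm9 and GRCh37 are named, with no role or version, per the submitters' processing notes. All values (100%) were whole multiples of the value of 1 read (tolerance 0.001), so reads were recovered: 16.0 to 47.1 M per library.

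CPM were scaled by TMM (edgeR 4.0.16) and log2(scaled CPM + 0.5) was tested with limma 3.58.1 (trend, R 4.3.3), in genes that reached 1 CPM in 3 or more libraries, with Benjamini-Hochberg adjustment over all of them. Intervals are 95% from the SE. Courses 1 to 3 and 4 to 6 were fitted separately, and comparisons between them in 1 fit. Recovered reads were also tested with edgeR and DESeq2 1.42.0. On simulated data for the 24 h comparison (13456 genes), 99% of 4-fold and 55% of 2-fold changes were recovered, and 4.35% of calls were false. The simulation changed few genes, in a single group, with the same dispersion (spread between libraries) for every gene and no course effect. These rates are therefore not those of the real comparison, where 26.1% of genes were called.

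Course numbers paired libraries where all 3 correlations of same-numbered deviations from the group means exceeded 0.1: with IL6 and TGFb against no cytokines at 0.5, 1, 2, 4 and 12 h, no cytokines against naive at 1 h, the IL1b against the IL21 cocktail at 24 h, and all cocktails at 72 h. Named genes were the 4 members, and from each list, at 2, 24 and 72 h, up to 3 called genes per direction with the largest change, no overlap between groups and a mean of 5 CPM or more. The 5 genes most like each member were ranked by Pearson r, passing over clone and predicted-gene names; 1 of them is not reported here. The members and the 12 gene lists were chosen with earlier results of these data known.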

Additional observations from a re-analysis of the deposited data

Results flagged for a closer look

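The effect of IL6 and TGFb against no cytokines differed between time points by a test of the difference itself (limma, adjusted over all genes tested). From 2 to 24 h the log2 difference rose by 2.92 for Ahr, 2.00 for Ahrr, 6.48 for Cyp1b1 and 2.46 for Tiparp. The Cyp1b1 rise was not called by edgeR (6.43, adjusted p = 0.112). From 24 to 72 h it changed by -1.57 for Cyp1b1 and -0.93 for Tiparp. The Cyp1b1 fall was called under 9 of 14 alternatives, and not by edgeR (adjusted p = 0.0777) or DESeq2 (adjusted p = 0.39). The Tiparp fall was called under all 14.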

How the results depend on the processing

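Of 180 results, 156 kept their side of the threshold under every alternative run, though differences that were not called could change sign (Cyp1b1 at 4 h with IL6 and TGFb against no cytokines, from -0.85 to 0.26). Over 2572 values under alternatives, 24 lost a call, 35 gained one and 0 changed the direction of a called value. Calls with IL6 and TGFb against no cytokines were 22 of 36 (19 to 21 with 1 course left out), no cytokines against naive 18 (17 to 21), IL6 and TGFb against naive 10 of 12 in each, and the effect between times 6 of 8 (5 to 7, and 4 by edgeR). Between cocktails, 1 of 60 was called, and 0 to 2 with 1 course left out, 3 with a pseudocount of 1, 2 with a filter of 5 CPM, 2 by edgeR and 2 by DESeq2. With the replicate block it was 2 over all libraries of the fit and 9 with only the libraries compared, and the cause was not tested. The block changed no count of calls in the comparison of IL6 and TGFb with no cytokines (22). Where the courses shared only a number, or their pairing was not checked (means over 0.5 to 6 h), the block added calls for Cyp1b1 at 2 h without cytokines (adjusted p = 0.0307), Ahr at 2 h (adjusted p = 0.0417), Ahr over 0.5 to 6 h (0.0383 for IL1b against IL21 and 0.00464 for the combined against the IL1b cocktail) and Cyp1b1 at 48 h (0.0358 for IL1b and 0.0201 for the combined against the IL21 cocktail). Comparisons against IL6 and TGFb with the naive level subtracted, and between naive cells, had 0 calls under each alternative, and the latter could not be fitted with a block on the libraries compared. Cyp1b1 before 12 h is limited by reads.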
